A study of Arabidopsis thaliana with 6 samples.

Results

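The genes described here encode splicing factors and RNA-binding proteins of *Arabidopsis thaliana*, chosen by function as a list of 43 locus identifiers among the 32833 genes of the count files. No rule on their values was used, but this list and those of other splicing genes were chosen with earlier results of these data known. The list holds 19 SR protein genes, 4 U2AF genes, 3 U1 snRNP genes, 11 LSM genes, the core spliceosome genes *PRP8A*, *PRP31* and *SKIP*, the arginine methyltransferase gene *PRMT5*, and the glycine-rich RNA-binding protein genes *GRP7* and *GRP8*. All 43 passed the filter on low counts. The RNA came from pools of seedlings at 14 days, and 2 libraries were sequenced for each of 3 genotypes, which are the mutants *fio1-1* and *fio1-2* in the Col-0 background and Col-0 itself as wild type. In *fio1-1* a mutated splice site shortens the protein slightly. The libraries labelled *fio1-2* were read as those of the CRISPR line named *fio1-5* in the study's text; each mutant is a single line. No group received a treatment. The replicates are called biological, and whether they were grown apart is not stated, so p-values measure only the spread between these libraries. The fit pools that spread largely over all tested genes, so a small error is not a gene's own replicate precision.

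FIO1 is the plant relative of METTL16, an RNA methyltransferase that places m6A on the U6 small nuclear RNA. Splicing starts when the U1 snRNP binds the 5′ splice site and U2AF binds the polypyrimidine tract and the AG of the 3′ splice site. SR proteins bind exons and help to recruit both. U6, which carries a ring of the proteins LSM2 to LSM8 on its 3′ end, then takes the place of U1 at the 5′ splice site inside a spliceosome built around PRP8. The comparisons ask whether genes of this machinery changed in transcript level when FIO1 was impaired, and whether both alleles changed them alike.

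Total counts per library lay between 9717111 and 13055457. The *FIO1* gene itself (AT2G21070) gave 11.1 and 8.95 CPM in the wild-type libraries, 8.24 and 8.54 in those of *fio1-1*, and 6.97 and 8.65 in those of *fio1-2*, which passed in neither mutant (adjusted p = 0.346 and 0.146, limma-voom); a gene count does not read the mutations themselves. The 4 leaf markers summed to 22856 to 23053 CPM in wild type, 26678 to 27396 in *fio1-1* and 21919 to 22089 in *fio1-2*, and among them *LHCB2.1*, a light-harvesting protein gene, rose 2.77-fold and 3.52-fold. The 5 seed and embryo markers summed to 0.192 to 0.511 CPM per wild-type library, where *CRU3*, *SESA1* and *LEC1* had no count; the *fio1-1* libraries reached 21.4 to 22.2 CPM and the *fio1-2* libraries 5102 to 5168 CPM. The 4 root markers summed to 1601 to 1626 CPM, 1690 to 1729 CPM and 2189 to 2241 CPM in the same order of genotypes. Nearly all of this sum was *PYK10* (a mean of 1596 CPM in wild type), while the nitrate transporter gene *NRT2.1* of the same list fell to 0.282 and 0.25 of wild type (adjusted p = 0.000164 and 2.64e-05). The 6 markers of dividing cells summed to 163 to 166, 192 to 194 and 177 to 178 CPM. The part of these marker changes in the values below was not tested, and in bulk seedlings fewer cells of a type and less RNA per cell cannot be told apart.

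The splicing factor genes changed little in either mutant. A gene passed when its Benjamini-Hochberg adjusted p from the limma-voom fit over 21268 genes was under 0.05. In *fio1-1*, 14 of 43 members passed, 6 higher and 8 lower than wild type, which is 32.6% of the members, where 28.6% of all tested genes passed (14.2% higher and 14.3% lower). In *fio1-2*, 11 members passed, 4 higher and 7 lower, which is 25.6% of the members, where 32.5% of all tested genes passed (16.4% higher and 16.1% lower). Both shares lay near those of all genes. The median log2 fold change of the members was -0.01 in *fio1-1* and -0.02 in *fio1-2*, beside 0.01 and 0.00 over all tested genes. The median absolute change was 0.11 and 0.12, beside 0.23 and 0.23. The median SE was 0.08 in each mutant for the members and 0.14 for all tested genes, so these absolute changes are not compared at equal error.

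None of the members reached a log2 fold change of 1 together with an adjusted p under 0.05 in either mutant, by limma-voom, edgeR or DESeq2, whereas 4.91% of tested genes did in *fio1-1* and 5.93% in *fio1-2*. At an unadjusted p under 0.05, limma-voom gave 16 members in *fio1-1*, where it gave 38.1% of all tested genes, and 17 in *fio1-2*, where it gave 41.5%. The largest change among those that passed was that of *RS31* in *fio1-1*, at -0.51 (0.701 of the wild-type level). The counts of passes depend on the tool, the scaling and the libraries. DESeq2 passed 5 members in each mutant, where it passed 16.8% of all tested genes in *fio1-1* and 18.8% in *fio1-2*. With upper-quartile factors, limma-voom gave 7 higher and 6 lower in *fio1-1*, and 6 higher and 5 lower in *fio1-2*. When wild type replicate 2 was left out, limma-voom passed 2 higher and 5 lower in *fio1-1*, and 3 higher and 2 lower in *fio1-2*. The libraries of the groups did not overlap for 24 members in *fio1-1*, which is 55.8%, beside 63% of all tested genes. In *fio1-2* this held for 29 members, which is 67.4%, beside 64.4% of all tested genes.

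**Figure D1:**
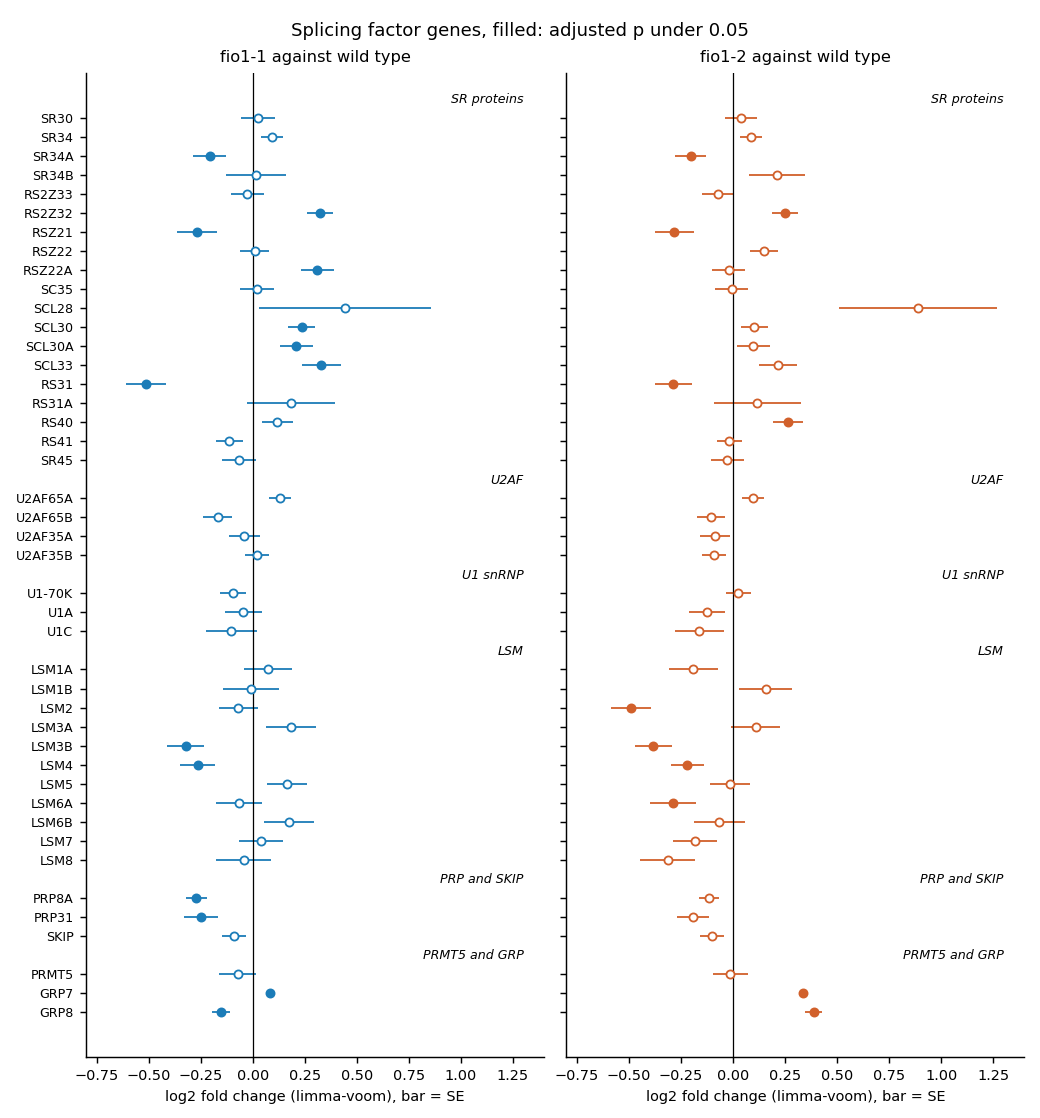
The log2 fold change against wild type (x axis) of each of the 43 genes, by role, for *fio1-1* on the left and *fio1-2* on the right, with bars of 1 SE; filled points passed. Filled points lie between -0.51 and 0.39, the U2AF and U1 snRNP genes have none, and the widest bars belong to *SCL28*, the gene with the lowest level.

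Levels of the members spanned a wide range in wild type, from a mean of 1.49 CPM for *SCL28* to 3098 CPM for *GRP7*, with a median of 49.7 CPM. Per kilobase of exon, *GRP7* stood first at 2659 ± 108 CPM per kb (SD, n = 2) and *GRP8* second at 322 ± 23.5. *LSM3B* at 73.8 ± 0.511 and *SR34* at 68.1 ± 4.14 followed. *SR34B*, *RS31A* and *SCL28* closed the order at 6.45 ± 0.628, 3.77 ± 0.589 and 1.22 ± 0.168 CPM per kb. Of the 42 pairs of neighbours in this order, 20 had wild-type libraries that overlapped and so do not differ beyond their spread. The lowest count of any member in a library was 14.

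*GRP7* and *GRP8* encode small RNA-binding proteins that follow the circadian clock and regulate splicing, including that of their own and of each other's transcripts. Both rose in *fio1-2*, and they are the members with the smallest errors, which rest mostly on the spread pooled over all tested genes. The study's methods give no time of day of harvest for the RNA-seq seedlings, so a shift in daily phase and a change of level cannot be told apart. *GRP7* (AT2G21660) stood at 3187 and 3009 CPM in wild type, 3209 and 3342 for *fio1-1*, and 3908 and 3906 for *fio1-2*. The *fio1-2* libraries lay above all others, while the *fio1-1* libraries lay just above wild type. The log2 fold change of *GRP7* was 0.34 ± 0.02 (SE) in *fio1-2*, which is 1.26-fold (adjusted p = 3.04e-24, limma-voom) and 0.08 ± 0.02 in *fio1-1* (adjusted p = 0.00111). In *fio1-1* it no longer passed by edgeR (adjusted p = 0.0546), by DESeq2 (0.161), without wild type replicate 2 (0.415) or without *fio1-1* replicate 2 (0.0582).

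*GRP8* (AT4G39260) stood at 374 and 338 CPM in wild type, 326 and 313 for *fio1-1*, and 448 and 480 for *fio1-2*. The 3 genotypes did not overlap, with *fio1-1* below and *fio1-2* above wild type. The log2 fold change of *GRP8* was 0.39 ± 0.04 in *fio1-2*, which is 1.31-fold (adjusted p = 9.58e-13) and -0.15 ± 0.04 in *fio1-1* (adjusted p = 0.00424). *GRP8* was the only member that passed in opposite directions in the mutants, and the *fio1-1* pass was lost without wild type replicate 1 (adjusted p = 0.33) and when *fio1-1* replicate 2 was left out (0.0639). The share of *GRP8* in the summed CPM per kb of the pair was 11% and 10.6% in wild type, 9.66% and 8.99% for *fio1-1*, and 10.8% and 11.5% for *fio1-2*.

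*PRMT5* (AT4G31120), whose product places symmetric dimethylarginine on Sm, LSM and other RNA-binding proteins, gave 46.7 and 43.1 CPM in wild type, 45.5 and 39.9 for *fio1-1*, and 46.1 and 43.1 for *fio1-2*. The libraries of the 3 genotypes overlapped. Its log2 fold change was -0.07 in *fio1-1*, with a 95% interval from -0.25 to 0.10, and -0.01 in *fio1-2*, from -0.18 to 0.15.

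**Figure D2:**
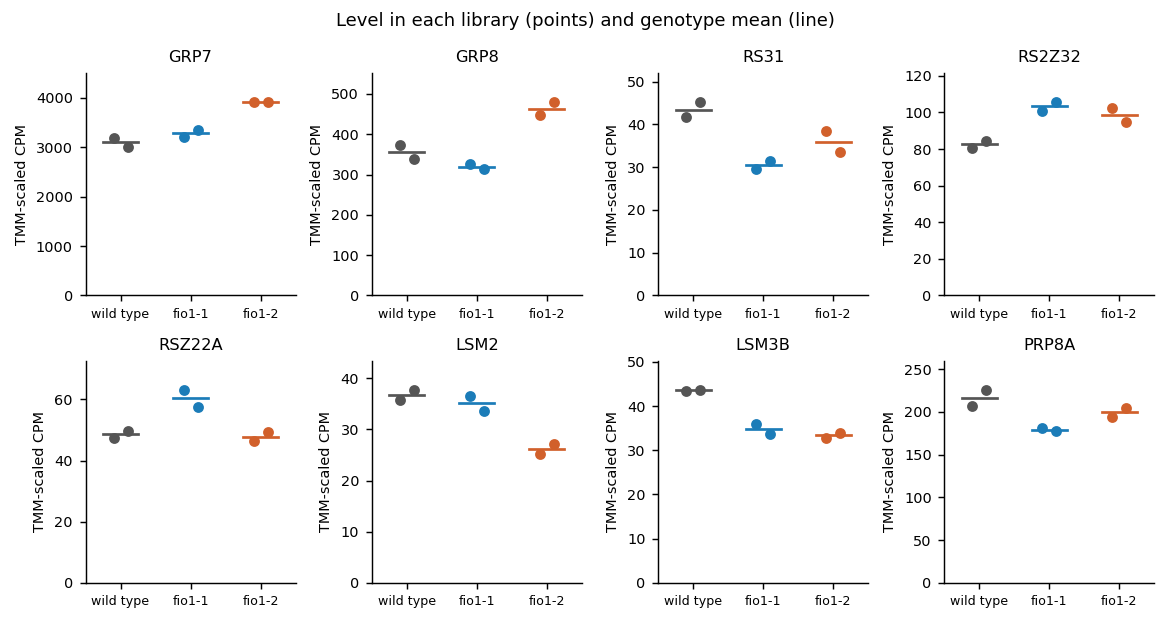
TMM-scaled CPM (y axis, from 0) of 8 members in each of the 6 libraries, as points, with the mean of each genotype as a line. *GRP7* and *GRP8* are highest in *fio1-2* (3908 and 3906 CPM for *GRP7*), *RSZ22A* is highest in *fio1-1*, *LSM2* is lowest in *fio1-2*, and *RS31* is lowest in *fio1-1*.

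The windows around the annotated starts of *GRP7* and *GRP8* are shown because both genes are known to peak in the evening under the clock; each holds the 250 bases before the first transcribed base and the 50 bases from it on, in RefSeq TAIR10.1. *RS40*, an SR gene that rose in *fio1-2*, and *LSM8*, which did not pass, are shown with them because their windows hold the same motif. The motifs searched on both strands were the evening element (AAAATATCT), the G-box (CACGTG), the telo-box (AAACCCTA) and site II (TGGGCC), none of which contains another, and capitals mark their matches. The windows are *GRP7* at chr2:9266508-9266807 (minus strand), *GRP8* at chr4:18275167-18275466 (minus strand), *RS40* at chr4:13024248-13024547 (plus strand) and *LSM8* at chr1:24436407-24436706 (minus strand).
GRP7: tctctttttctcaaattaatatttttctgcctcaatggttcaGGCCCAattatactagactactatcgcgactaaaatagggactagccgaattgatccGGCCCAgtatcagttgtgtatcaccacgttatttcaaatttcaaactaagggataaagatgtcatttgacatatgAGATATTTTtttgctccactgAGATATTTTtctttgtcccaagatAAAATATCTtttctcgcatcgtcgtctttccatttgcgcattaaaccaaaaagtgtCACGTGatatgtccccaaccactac
GRP8: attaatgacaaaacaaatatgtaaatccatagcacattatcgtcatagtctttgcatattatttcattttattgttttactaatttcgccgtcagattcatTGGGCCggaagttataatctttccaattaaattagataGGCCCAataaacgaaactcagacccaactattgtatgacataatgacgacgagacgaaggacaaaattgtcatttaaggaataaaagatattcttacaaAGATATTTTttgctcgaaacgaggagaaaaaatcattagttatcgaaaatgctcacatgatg
RS40: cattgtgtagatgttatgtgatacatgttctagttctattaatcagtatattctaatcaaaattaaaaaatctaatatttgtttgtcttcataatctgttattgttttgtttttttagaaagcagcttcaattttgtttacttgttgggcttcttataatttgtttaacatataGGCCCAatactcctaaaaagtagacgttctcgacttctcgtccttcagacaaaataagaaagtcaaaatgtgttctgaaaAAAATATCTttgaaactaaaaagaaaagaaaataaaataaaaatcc
LSM8: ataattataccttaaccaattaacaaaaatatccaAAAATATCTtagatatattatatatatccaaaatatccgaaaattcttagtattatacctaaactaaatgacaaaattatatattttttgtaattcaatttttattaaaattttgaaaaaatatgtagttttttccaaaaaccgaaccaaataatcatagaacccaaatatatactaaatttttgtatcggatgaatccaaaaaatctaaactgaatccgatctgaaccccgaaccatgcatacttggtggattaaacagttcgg
The *GRP7* window held 3 evening elements and that of *GRP8* held 1. In all, 6 of the 43 windows held at least 1 (14%), against 2.82% of the 27443 windows of protein-coding genes. The other 4 genes were *RS40*, *LSM1B*, *LSM8* and *PRP31*. Of the 6 genes, *GRP7*, *GRP8* and *RS40* were among the 4 members that passed in *fio1-2* as higher, and the rest did not pass there. Whether a match went with a rise was not tested. Site II was in 17 of the 43 windows (39.5%), against 15.5% of those of all protein-coding genes and 18.5% of those of tested genes. It was in 9 of the 19 windows of SR genes (47.4%). The G-box was in 6.98% of the members' windows (7.68% of all) and the telo-box in 6.98% (6.22% of all). Among the 19999 windows of tested genes, the shares were 3% for the evening element, 8.93% for the G-box and 5.55% for the telo-box. A match describes the letters of the window only.

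**Figure D3:**
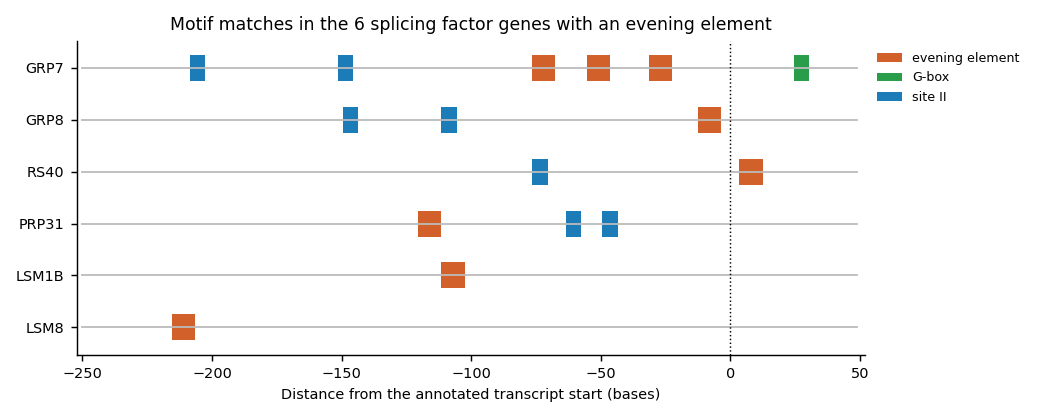
Positions of motif matches (coloured boxes, to scale) by distance in bases from the annotated transcript start (dotted line) in the 6 genes with an evening element. The 3 evening elements of *GRP7* begin 76, 55 and 31 bases before the start, that of *GRP8* begins 12 bases before it, and that of *RS40* begins 4 bases after it.

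SR proteins carry RNA recognition motifs and a domain rich in arginine and serine, and they mark exons for the splicing machinery. In *fio1-1*, 5 of the 19 SR genes rose and 3 fell, and in *fio1-2*, 2 rose and 3 fell; the median log2 fold change was 0.03 in *fio1-1* and 0.09 in *fio1-2*. The SR genes that passed were 42.1% in *fio1-1*, where 28.6% of all tested genes passed (14.2% higher and 14.3% lower), and 26.3% in *fio1-2*, where 32.5% did (16.4% higher and 16.1% lower). DESeq2, which passed 16.8% and 18.8% of all tested genes, gave 2 higher and 1 lower in *fio1-1*, and 1 higher and 0 lower in *fio1-2*. With upper-quartile factors 1 was lower in *fio1-1*, while *fio1-2* had 4 higher and 2 lower. When wild type replicate 2 was left out, these counts were 2 higher and 1 lower in *fio1-1*, and 1 higher and 0 lower in *fio1-2*; without *fio1-1* replicate 1, 3 SR genes were higher in *fio1-1*. For *fio1-2*, leaving out its replicate 1 gave 1 lower, and leaving out its replicate 2 gave 1 higher. Of the 5 genes of the *SC35* and SCL subfamily, *SCL30*, *SCL30A* and *SCL33* rose in *fio1-1*; in *fio1-2* none passed, 4 of the 5 had a value above 0, and none of the 5 differed between the alleles by limma-voom (1 at an unadjusted p under 0.05). *RS31* and *RSZ21* fell in both mutants and so did *SR34A*, whereas *RS2Z32* rose in both. These gene counts sum all transcripts of a gene: 15 of the 19 SR genes have several annotated transcripts, up to 8, so a switch between productive and unproductive isoforms would not show in them.

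*RS31* (AT3G61860), of the plant-specific RS subfamily, showed the largest decrease. It stood at 41.7 and 45.2 CPM in wild type, 29.6 and 31.4 for *fio1-1*, and 38.5 and 33.5 for *fio1-2*. Both mutants lay below wild type in every library, *fio1-1* further than *fio1-2*. Its log2 fold change was -0.51 ± 0.10 in *fio1-1* (adjusted p = 1.45e-05), which passed under all 13 alternatives, and -0.29 ± 0.09 in *fio1-2* (adjusted p = 0.00829). The latter was lost by DESeq2 (0.126), without wild type replicate 2 (0.149) and when *fio1-2* replicate 2 was left out (0.23). The difference between the alleles did not pass (0.23, 95% interval from 0.03 to 0.42, adjusted p = 0.0965), but it did without *fio1-2* replicate 2 (0.34, adjusted p = 0.0379).

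*RS2Z32* (AT3G53500), an SR gene of the plant-specific subfamily with zinc knuckles, gave 80.7 and 84.3 CPM in wild type, 101 and 106 for *fio1-1*, and 103 and 94.6 for *fio1-2*. All mutant libraries lay above wild type, and the mutants overlapped. *RS2Z32* rose by 0.32 ± 0.06 on the log2 scale in *fio1-1* (adjusted p = 3.78e-05) and by 0.25 ± 0.06 in *fio1-2* (adjusted p = 0.00102), and it passed under all 13 alternatives in both. Its paralogue *RS2Z33* did not pass in either (-0.03 and -0.07), and the share of *RS2Z32* in the summed CPM per kb of the pair was 59.4% and 59.7% in wild type, 63.7% and 66.6% for *fio1-1*, and 66.9% and 62.9% for *fio1-2*.

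*RSZ22A* (AT2G24590), an SR gene with a single zinc knuckle, was high in *fio1-1* alone. It stood at 47.5 and 49.7 CPM in wild type, 63.2 and 57.6 for *fio1-1*, and 46.3 and 49.4 for *fio1-2*. The *fio1-1* libraries lay above the 4 others, which overlapped. The log2 fold change was 0.31 ± 0.08 in *fio1-1* (adjusted p = 0.00141) and -0.02 ± 0.08 in *fio1-2* (adjusted p = 0.876). Without *fio1-1* replicate 1 the adjusted p in *fio1-1* was 0.065. Its paralogue *RSZ22* gave 0.01 in *fio1-1*, with a 95% interval from -0.13 to 0.15, and 0.15 in *fio1-2*, from 0.02 to 0.28, neither of which passed; in *fio1-2* it did with upper-quartile factors (adjusted p = 0.0422) and without *fio1-2* replicate 1 (0.0387).

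*SCL33* (AT1G55310), of the plant-specific SC35-like subfamily, gave 33.1 and 31.4 CPM in wild type, 40.6 and 40.3 for *fio1-1*, and 37.7 and 37.2 for *fio1-2*. Every mutant library exceeded wild type. *SCL33* rose by 0.33 ± 0.09 on the log2 scale in *fio1-1* (adjusted p = 0.00428), and its value in *fio1-2* was 0.22 ± 0.09 (adjusted p = 0.0599). The *fio1-1* pass was lost by DESeq2 (0.0592) and without wild type replicate 2 (0.0855), and the *fio1-2* value passed with upper-quartile scaling. *SCL30* and *SCL30A*, of the same subfamily, rose by 0.24 and 0.21 in *fio1-1* and gave 0.10 and 0.10 in *fio1-2*. Of 13 alternatives, *SCL30* passed under 11 and *SCL30A* under 7 in *fio1-1*.

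The remaining SR genes that passed were *SR34A*, *RSZ21* and *RS40*. *SR34A*, one of the genes nearest to human SRSF1, fell by 0.21 in *fio1-1* and by 0.20 in *fio1-2*, and passed under 8 of 13 alternatives in each. *RSZ21* fell by 0.27 and by 0.28, under 8 and 9 of 13 alternatives. *RS40* rose by 0.27 in *fio1-2*, under 10 of 13 alternatives, with 77.4 and 63.5 CPM in wild type, 76.8 and 75.1 for *fio1-1*, and 81.3 and 86.4 for *fio1-2*. The spread of *RS40* between the wild-type libraries was wider than that within either mutant, and without wild type replicate 1 it also passed in *fio1-1* (0.26, adjusted p = 0.0335). *SCL28*, the SR gene of lowest level, gave 1.63 and 1.35 CPM in wild type, 1.89 and 2.18 for *fio1-1*, and 2.48 and 3.06 for *fio1-2*; its log2 fold change in *fio1-2* was 0.89, with a 95% interval from 0.13 to 1.65 and an adjusted p of 0.0642. *SR45*, an SR-like protein gene with 2 domains rich in arginine and serine, gave -0.07 and -0.03.

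U2AF and the U1 snRNP define the ends of the intron before U6 enters. None of their 7 genes passed in either mutant by limma-voom with all libraries and TMM factors, and at an unadjusted p under 0.05 there were 2 U2AF genes in *fio1-1*. These were *U2AF65A*, at 0.13 with a 95% interval from 0.02 to 0.24, and *U2AF65B*, at -0.17 from -0.31 to -0.03. *U2AF65A* passed as higher with upper-quartile factors (0.17, adjusted p = 0.0115), and *U2AF65B* as lower without wild type replicate 1 (-0.25, adjusted p = 0.0295). They encode copies of the large subunit that binds the polypyrimidine tract. *U2AF65B* made 38.5% and 41.6% of the summed CPM per kb of the pair in wild type, 34.6% and 35.8% for *fio1-1*, and 37.1% and 36.5% for *fio1-2*, so the wild-type range lay above both mutants. Of the 50-base runs in *U2AF65B* exons, 8.63% are identical to a run in AT1G60830, so its counts are less certain. The 2 genes of the small subunit, *U2AF35A* and *U2AF35B*, gave -0.04 and 0.02 in *fio1-1* and -0.09 and -0.09 in *fio1-2*; both overlap genes on the opposite strand, and whether the counting used strand is not stated.

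*U1-70K* (AT3G50670), whose product binds U1 RNA and contacts SR proteins at the 5′ splice site, stood at 95.3 and 92.5 CPM in wild type, 91.4 and 84.3 for *fio1-1*, and 95.4 and 95.8 for *fio1-2*. The *fio1-1* libraries lay below and the *fio1-2* libraries above wild type, by margins within the spread. Its log2 fold change was -0.10 in *fio1-1*, with a 95% interval from -0.22 to 0.03, and 0.03 in *fio1-2*, from -0.09 to 0.15. *U1A* and *U1C* gave -0.05 and -0.10 in *fio1-1* and -0.12 and -0.16 in *fio1-2*.

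LSM proteins form 2 rings that share most subunits: LSM2 to LSM8 hold the 3′ end of U6 in the nucleus, and the ring with LSM1 in place of LSM8 acts on decapping of mRNA in the cytoplasm. In *fio1-2*, 4 of 11 LSM genes fell and none rose, and in *fio1-1*, 2 fell and none rose. The 4 became 2 by DESeq2 and without either wild-type library or *fio1-2* replicate 1, and the 2 of *fio1-1* became 0 by DESeq2 and without *fio1-1* replicate 2, and 1 without wild type replicate 1. The share that passed as lower was 36.4% in *fio1-2*, where 16.1% of all tested genes did, and 18.2% in *fio1-1*, near the 14.3% of all tested genes. By DESeq2, 18.8% of all tested genes passed in either direction in *fio1-2* and 16.8% in *fio1-1*. The median change of the LSM genes was -0.19 in *fio1-2* and -0.01 in *fio1-1*, and only *LSM1B* and *LSM3A* had a value above 0 in *fio1-2*. In the direct contrast of the alleles, 1 of the 11 passed, *LSM2*, which was lower in *fio1-2*; this is 9.09%, near the 8.76% of all tested genes, and without *fio1-1* replicate 2 *LSM6B* and *LSM8* passed too, which makes 3. The median difference was -0.22, and 2 of the 11 had a value above 0. The Sm core genes, described below, leaned the same way in this contrast.

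*LSM2* (AT1G03330) gave 35.8 and 37.8 CPM in wild type, 36.5 and 33.7 for *fio1-1*, and 25.1 and 27.1 for *fio1-2*. The *fio1-2* libraries lay below the 4 others, among which wild type and *fio1-1* overlapped. *LSM2* fell by 0.49 on the log2 scale, to 0.712 of the wild-type level, in *fio1-2* (SE 0.10, adjusted p = 3.58e-05) and passed under all 13 alternatives. In *fio1-1* it gave -0.07 ± 0.09 (adjusted p = 0.631).

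*LSM3B* (AT1G76860), the more abundant of the copies of LSM3, stood at 43.3 and 43.8 CPM in wild type, 36.0 and 33.7 for *fio1-1*, and 32.8 and 34.0 for *fio1-2*. Both mutants lay below wild type and overlapped each other. *LSM3B* overlaps a gene on the opposite strand. The decrease was -0.32 ± 0.09 in *fio1-1* (adjusted p = 0.00386) and -0.38 ± 0.09 in *fio1-2* (adjusted p = 0.000344). Only the *fio1-1* pass was lost, by DESeq2 (0.0527) and without *fio1-1* replicate 2 (0.0671). Its copy *LSM3A* did not pass (0.19 and 0.11), and the summed level of the pair was 103 and 101 CPM per kb in wild type, 92.5 and 89.6 for *fio1-1*, and 88.1 and 86.3 for *fio1-2*, so the sum too was lower in every mutant library.

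*LSM6A* (AT3G59810) gave 27.4 and 25.4 CPM in wild type, 27.2 and 23.2 for *fio1-1*, and 21.9 and 21.4 for *fio1-2*. The *fio1-2* libraries lay below the others. It had fallen by 0.29 (log2) in *fio1-2* (SE 0.11, adjusted p = 0.037), a pass that held under 6 of 13 alternatives: it was lost by DESeq2 (0.21), with upper-quartile scaling (0.0539), with no filter (0.0507), without wild type replicate 1 (0.232) or 2 (0.0611), and without *fio1-2* replicate 1 (0.0739) or 2 (0.155). *LSM4*, which encodes a subunit of both rings, fell in both mutants, by 0.26 and by 0.22, under 10 and 9 of 13 alternatives.

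*LSM8* (AT1G65700), which encodes the subunit that sets the nuclear ring apart from the cytoplasmic one, stood at 19.1 and 18.5 CPM in wild type, 21.0 and 15.8 for *fio1-1*, and 15.8 and 14.6 for *fio1-2*. The *fio1-2* libraries lay below wild type, and those of *fio1-1* spanned it. The log2 fold change of *LSM8* was -0.31 in *fio1-2*, with a 95% interval from -0.58 to -0.05 (adjusted p = 0.0618), and -0.04 in *fio1-1*, from -0.31 to 0.22. The alleles differed in *LSM8* only when *fio1-1* replicate 2 was left out (-0.48, adjusted p = 0.0231). *LSM1A* and *LSM1B*, which encode the subunit of the cytoplasmic ring, gave -0.19 and 0.16 in *fio1-2*, and neither passed. *LSM5* and *LSM7* gave -0.01 and -0.18 in *fio1-2*.

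**Figure D4:**
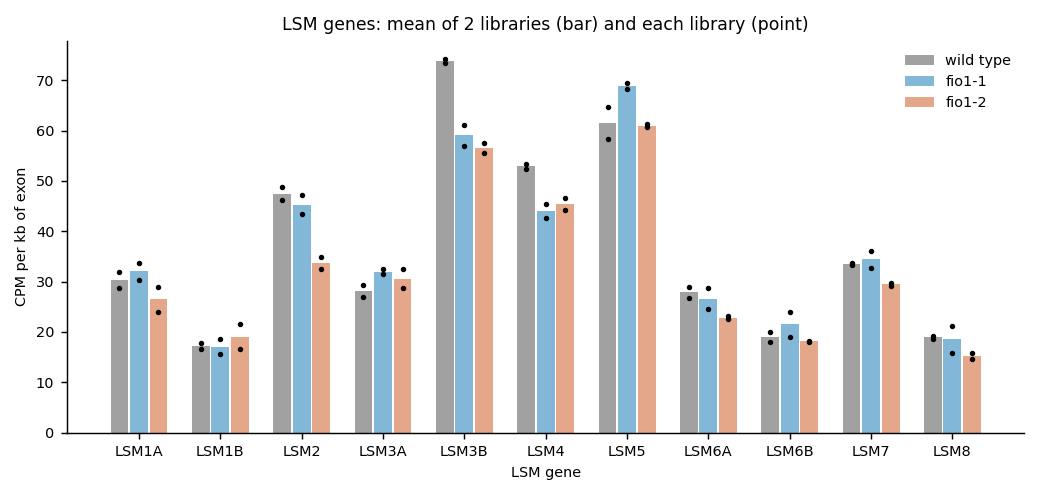
CPM per kb of exon (y axis, from 0) of the 11 LSM genes in wild type, *fio1-1* and *fio1-2*, as the mean of 2 libraries (bars) with each library as a point. *LSM3B* and *LSM4* are lower in both mutants, and *LSM2*, *LSM6A*, *LSM7* and *LSM8* are lowest in *fio1-2*; *LSM7* and *LSM8* did not pass.

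*PRP8A* (AT1G80070) encodes the large scaffold protein at the centre of the spliceosome. It stood at 207 and 226 CPM in wild type, 181 and 177 for *fio1-1*, and 195 and 205 for *fio1-2*. The 3 genotypes did not overlap, with *fio1-2* between the others. *PRP8A* had fallen by 0.27 (log2) in *fio1-1* (SE 0.05, adjusted p = 9.56e-06), under all 13 alternatives, and gave -0.11 ± 0.05 in *fio1-2* (adjusted p = 0.0588). The *fio1-2* value passed under 4 alternatives, without wild type replicate 1, *fio1-1* replicate 1, *fio1-1* replicate 2 or *fio1-2* replicate 2.

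*PRP31* (AT1G60170), whose product joins U4/U6 to U5, gave 52.2 and 55.9 CPM in wild type, 43.5 and 47.7 for *fio1-1*, and 46.1 and 48.4 for *fio1-2*. Every mutant library lay below wild type, and the mutants overlapped. It had fallen by 0.25 (log2) in *fio1-1* (SE 0.08, adjusted p = 0.0155) and gave -0.19 ± 0.08 in *fio1-2* (adjusted p = 0.0519), where it passed with RLE factors (0.0493) and without *fio1-1* replicate 1 (0.0438) or 2 (0.0436). The *fio1-1* pass was lost by DESeq2 (0.117), without wild type replicate 2 (0.195) and when *fio1-1* replicate 1 was left out (0.189); of the 50-base runs in its exons, 6.42% are identical to a run in the exons of AT3G60610 or AT5G51620.

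*SKIP* (AT1G77180), whose product belongs to the spliceosome and is known for its part in the splicing of clock transcripts, stood at 125 and 124 CPM in wild type, 112 and 122 for *fio1-1*, and 113 and 119 for *fio1-2*. The mutant libraries lay below wild type by a small margin. *SKIP* did not pass: its log2 fold change was -0.09 in *fio1-1*, with a 95% interval from -0.21 to 0.02, and -0.10 in *fio1-2*, from -0.21 to 0.01.

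Between the alleles, 5 of the 43 members passed, 3 higher and 2 lower in *fio1-2* than in *fio1-1*, which is 11.6% of the members, where 18.1% of all tested genes passed (9.31% higher and 8.76% lower). None reached a log2 difference of 1, by limma-voom, edgeR or DESeq2, where 2.68% of tested genes did, and 14 members had an unadjusted p under 0.05, as did 28.9% of tested genes. The libraries of the alleles did not overlap for 25 members, which is 58.1%, and for 54.8% of tested genes. The largest difference was that of *GRP8*, at 0.54 ± 0.04 (95% interval from 0.46 to 0.62, adjusted p = 6.19e-18). *GRP7* differed by 0.25 ± 0.02 (adjusted p = 3.63e-18). *LSM2* differed by -0.42 ± 0.10 (adjusted p = 0.00076) and *RSZ22A* by -0.33 ± 0.08 (adjusted p = 0.000665). *PRP8A* was higher in *fio1-2* than in *fio1-1* by 0.16 ± 0.05 (adjusted p = 0.0146).

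Of these 5 differences, those of *GRP7*, *GRP8* and *LSM2* passed under all 13 alternatives. That of *RSZ22A* was lost without *fio1-1* replicate 1 (adjusted p = 0.052). That of *PRP8A* was lost by DESeq2 (0.122), without *fio1-1* replicate 2 (0.118) and without *fio1-2* replicate 2 (0.212). The number of members lower in *fio1-2* was 1 without *fio1-1* replicate 1 and 4 without *fio1-1* replicate 2, beside 2 with all libraries.

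**Figure D5:**
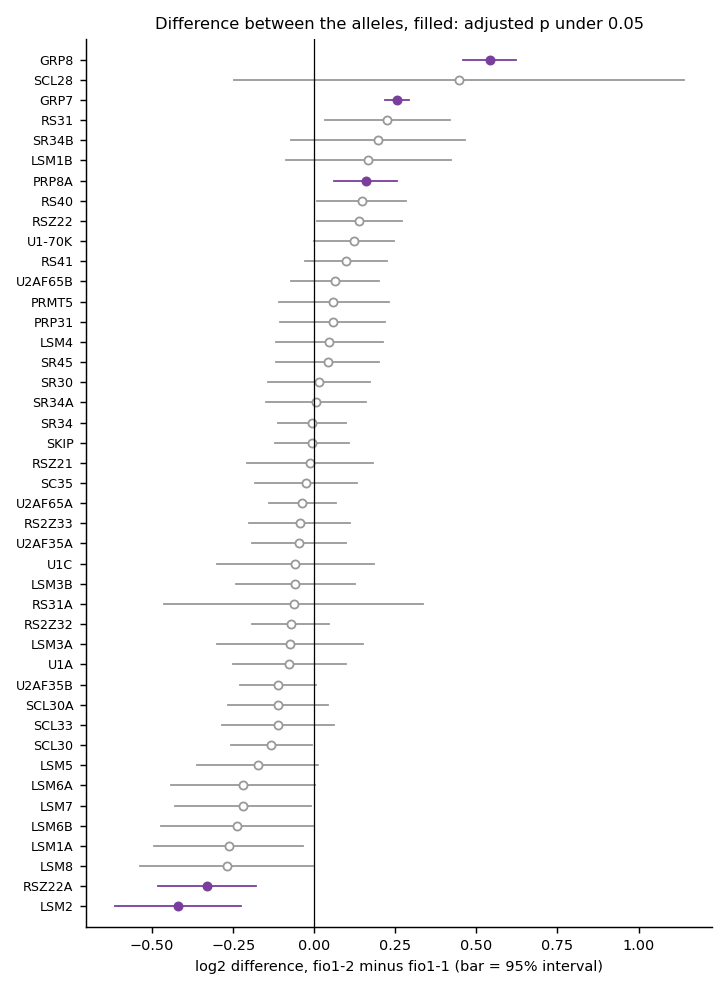
The log2 difference between *fio1-2* and *fio1-1* (x axis) for the 43 genes in order of size, with 95% intervals as bars; filled points passed. *GRP8*, *GRP7* and *PRP8A* are the filled points above 0, *RSZ22A* and *LSM2* those below, and 6 further LSM genes lie just above *LSM2* and *RSZ22A* with values from -0.27 to -0.18.

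In all, 26 of the 43 members passed in none of the 3 contrasts. Their log2 fold changes ran from -0.17 to 0.44 in *fio1-1* and from -0.31 to 0.89 in *fio1-2*. The 95% interval lay within 0.5 of 0 on the log2 scale for 24 of the 26 in *fio1-1* and for 23 in *fio1-2*. Members that passed lower in both mutants were *SR34A*, *RSZ21*, *RS31*, *LSM3B* and *LSM4*, and *GRP7* and *RS2Z32* passed higher in both; the 2 contrasts share the wild-type libraries.

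A list of 60 other genes of the splicing machinery gave 4 higher and 9 lower in *fio1-1*, which is 21.7% passed, and 1 higher and 9 lower in *fio1-2*, which is 16.7%, beside the 28.6% and 32.5% of all genes. None was called with a log2 fold change of 1 by limma-voom, and at an unadjusted p under 0.05 there were 19 and 21. Without wild type replicate 2, 1 was higher and 5 lower in *fio1-1*, without *fio1-1* replicate 1 these counts were 2 and 5, without *fio1-1* replicate 2, 2 were higher, and DESeq2 gave 0 and 5. In *fio1-2*, DESeq2 gave 0 higher and 5 lower. Of all tested genes, DESeq2 passed 16.8% in *fio1-1* and 18.8% in *fio1-2*. The only gene higher in *fio1-2* was *AFC1*, an SR protein kinase gene (0.32, adjusted p = 0.0458); it passed under 5 of 13 alternatives and in no fit that left out any 1 library (0.0519 to 0.307). *AFC1* also passed as higher in *fio1-1*, under 10 of 13 alternatives, and was lost there by DESeq2 (adjusted p = 0.111). In the Prp19 complex, which acts in the activation of the spliceosome, 4 of 10 genes fell in each mutant and none rose. This is 40%, where 14.3% of all tested genes passed as lower in *fio1-1* and 16.1% in *fio1-2*. DESeq2 passed 1 and 2 of them. Without wild type replicate 2, 1 fell in *fio1-1* and 2 in *fio1-2*, and with either *fio1-1* library left out 2 fell in *fio1-1*, as did 2 in *fio1-2* without *fio1-2* replicate 1. *PRL1* fell by 0.30 in *fio1-1* (adjusted p = 0.00013) and by 0.26 in *fio1-2* (adjusted p = 0.000413), both under all 13 alternatives. *MOS4* fell by 0.24 and by 0.38 (adjusted p = 0.0148 and 5.04e-05); the *fio1-1* pass was lost by DESeq2 (0.121), without wild type replicate 1 (0.109) or 2 (0.0514) and without *fio1-1* replicate 1 (0.199).

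The Sm core proteins encircle the U1, U2, U4 and U5 RNAs, as the LSM ring does for U6. Of their 13 genes, 1 rose and 1 fell in *fio1-1* (15.4% in all, beside 28.6% of all tested genes). In *fio1-2* none rose and 3 fell (23.1%), where 16.1% of all tested genes passed as lower and 32.5% in either direction. In the direct contrast of the alleles, 3 were lower in *fio1-2* than in *fio1-1* (23.1%, beside 8.76% of all tested genes) and none was higher. DESeq2 passed 0 in that contrast, where it passed 9.06% of all tested genes. The 3 genes were *SMD3A* and *SMD3B*, each of which passed under 10 of 13 alternatives, and *SMG* (AT2G23930), under 4. The median difference of the Sm core genes was -0.12, and 0 of the 13 genes had a value above 0. The gene that fell in *fio1-1*, *SMD2* (AT3G62840, adjusted p = 0.0493), passed under 5 of 13 alternatives and was lost by DESeq2 (0.205) and without wild type replicate 1 (0.131) or 2 (0.221) or *fio1-1* replicate 1 (0.0806) or 2 (0.21). The gene that rose, *SMG* (AT3G11500, adjusted p = 0.0223), was lost by DESeq2 (0.166), when wild type replicate 2 was left out (0.225) and when *fio1-1* replicate 1 was (0.348). The 3 that fell in *fio1-2* became 2 by DESeq2 and without wild type replicate 2, and 1 when wild type replicate 1 or *fio1-2* replicate 2 was left out. The largest of these changes was that of *SMD3A* in *fio1-2*, at -0.42 (adjusted p = 0.00155), which did not pass without wild type replicate 1 (0.11) or *fio1-2* replicate 2 (0.113).

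Another 13 genes were listed with the U4/U6.U5 particle, and not all encode its subunits: *USB1* is annotated as a U6 snRNA phosphodiesterase-like protein. Of the 13, 1 rose and 3 fell in *fio1-1*, which is 30.8% (28.6% of all tested genes). In *fio1-2*, 2 fell, which is 15.4% (32.5% of all). The rise was lost by DESeq2 and without replicate 2 of wild type or of *fio1-1*, while the 2 that fell in *fio1-2* became 1 by DESeq2. *DIM1* fell in both mutants, by 0.26 and by 0.36 (adjusted p = 0.000424 and 1.26e-06), under all 13 alternatives. The helicase gene *BRR2A* fell by 0.28 in *fio1-1* (adjusted p = 2.76e-05) and gave -0.04 in *fio1-2*, and the difference between the alleles passed (0.23, adjusted p = 0.000503), except without *fio1-1* replicate 1 (0.102). In *fio1-1*, 1 of the 9 genes of the U2 snRNP and *SF1* passed: *SF3A3*, a gene of the SF3a complex, fell by 0.38 (adjusted p = 0.00134), except without *fio1-1* replicate 1 (0.0655). *PTB3*, a gene of the polypyrimidine tract-binding family and the only 1 of the 5 other regulators to pass in *fio1-1*, rose by 0.24 (adjusted p = 0.00723), which was lost by DESeq2 (0.0782) and without wild type replicate 1 (0.172) or *fio1-1* replicate 2 (0.0753). None of the 6 genes of U1 accessory proteins passed in *fio1-1*, and none of these 3 groups had a pass in *fio1-2* by limma-voom with all libraries and TMM factors; at an unadjusted p under 0.05 there were 0, 2 and 2 genes in *fio1-2*, in the order U2 snRNP and *SF1*, U1 accessory and other regulators, and 1 U1 accessory gene in *fio1-1*. In *fio1-2*, *PTB3* passed with upper-quartile factors (0.0392), and *PRP40B* of the U1 accessory genes passed when replicate 2 of wild type (0.0401), of *fio1-1* (0.0498) or of *fio1-2* (0.0422) was left out.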

How the data were processed

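Per the labels and the methods, the authors trimmed reads with Trim Galore 0.6.3, aligned them to TAIR10 with HISAT2 2.1.0 and deposited raw counts per gene from HTSeq 0.9.1; whether strand was used is not given in the sources used here. The authors' tables from limma 3.38.3 (log2 fold changes, p-values) were not used. Labels and methods differ on the growth medium, so none is stated.

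All 6 libraries entered 1 limma-voom fit (limma 3.58.1, edgeR 4.0.16, R 4.3.3) with TMM factors, a mean per genotype and no covariate. The filterByExpr function kept 21268 genes, which hold 99.88% to 99.91% of the counts. P-values were adjusted by Benjamini-Hochberg over these genes; levels are TMM-scaled CPM, per kilobase of merged TAIR10.1 exons where stated. Intervals are 95%. With 2 libraries against 2, an exact permutation test cannot go below p = 0.333, so none was made. Fits were tested on simulated data.

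Named members were those with the largest changes among passes in each role group (up to 3) and between the alleles (up to 3), plus LSM8, PRP8A, PRP31, SKIP, PRMT5, GRP7, GRP8 and U1-70K; other members appear with values in passing. The members and lists were chosen with earlier results of these data known. Alternatives were edgeR, DESeq2 1.42.0, upper-quartile and RLE factors, no filter, the compared genotypes only, a replicate block, and each library left out, 13 per gene, and a fold minimum for the counts. No 50-base run in the exons of 40 of the 43 members is identical to a run in another gene, and 15 members overlap a gene on the opposite strand.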

Additional observations from a re-analysis of the deposited data

Results flagged for a closer look

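The change against wild type differed between the mutants for 5 members, by the direct contrast of *fio1-2* with *fio1-1* in the limma-voom fit; the part of the seed, root and dividing-cell markers in these differences was not tested. *GRP8* differed by 0.54 on the log2 scale (326 and 313 CPM in *fio1-1*, 448 and 480 in *fio1-2*), and its changes against wild type had opposite signs. *GRP7* differed by 0.25 (3209 and 3342 CPM against 3908 and 3906). *LSM2* differed by -0.42 (36.5 and 33.7 CPM against 25.1 and 27.1). *RSZ22A* differed by -0.33 (63.2 and 57.6 CPM against 46.3 and 49.4). *PRP8A* differed by 0.16 (181 and 177 CPM against 195 and 205), the smallest of the 5.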

How the results depend on the processing

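DESeq2 passed fewer members, with 2 higher and 3 lower in *fio1-1* (6 and 8 by limma-voom) and 2 lower in *fio1-2* (7 by limma-voom). It also passed fewer of all tested genes, 16.8% in *fio1-1* and 18.8% in *fio1-2*, beside 28.6% and 32.5% by limma-voom. With a log2 fold minimum of 1, all 6 counts were 0. With a library left out, the counts ran from 2 to 6 higher and 4 to 8 lower in *fio1-1*, from 3 to 5 higher and 2 to 9 lower in *fio1-2*, and from 2 to 3 higher and 1 to 4 lower between the alleles. edgeR, upper-quartile and RLE factors, no filter and the compared genotypes alone kept the 6 counts over all members within 1.5 times. Counts of role groups moved more: with upper-quartile factors the SR genes lower in *fio1-1* went from 3 to 1, those higher in *fio1-2* from 2 to 4, and the U2AF genes higher in *fio1-1* from 0 to 1; with edgeR, *GRP7* no longer passed in *fio1-1*; with RLE factors *PRP31* passed in *fio1-2*. With the replicate block the counts were 6 and 8, 4 and 7, and 3 and 2, as without it. Among the other splicing genes the block lost the *fio1-1* pass of *SMD2* (AT3G62840, adjusted p = 0.0519) and took those lower in *fio1-2* than in *fio1-1* from 4 to 2. Over all tested genes, deviations of libraries with the same replicate number correlated at 0.000309, -0.00432 and -0.0281, so no shift shared by number showed over the genes as a whole. A batch that acts on few genes, or that does not follow the replicate number, was not tested. Of the passes, 3 of 14 in *fio1-1*, 5 of 11 in *fio1-2* and 3 of 5 between the alleles held under all 13 alternatives. No pass turned direction among the named members. The cause of the losses was not tested, beyond the fewer samples of a fit that leaves one out. With 2 libraries per genotype, log2 standard errors of the members ran from 0.02 to 0.41.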
